A study of Mus musculus with 2 samples.

Results

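The regulated exocytosis machinery was taken as a list of 47 mouse genes, chosen by symbol, out of the 43346 mouse gene identifiers in the deposited tables. All 47 were found. By role they are 3 Qbc-SNAREs, 4 Qa-SNAREs, 5 R-SNAREs, an SM protein and tomosyn, 12 synaptotagmins, 2 complexins, 6 Rab GTPases, 2 other C2-domain proteins, 5 priming factors, 3 vesicle glycoproteins, 2 SNARE disassembly factors and 1 clathrin adaptor. The RNA came from whole adrenal glands of C57BL/6J mice aged 8 weeks. Poly(A) RNA longer than 200 nt was sequenced as stranded pairs of 76 nt in 2 libraries, biological replicates 1 and 2 of 1 group. No treatment or altered genotype is named in the labels, so there was no contrast of conditions, and the values answer which of these genes the gland expressed, at what level, in which transcript form, and how far the replicates differed. The labels describe littermates of both sexes and give both libraries the same donor entry. They do not say whether a library is 1 animal or a pool, so p-values between the libraries measure only how these 2 samples differed.

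In regulated exocytosis a vesicle waits near the plasma membrane until calcium enters the cell. An R-SNARE on the vesicle then zips together with a Qa-SNARE (a syntaxin) and a Qbc-SNARE (SNAP-25 or a relative) on the target membrane, and the membranes fuse. Rab3 and Rab27 GTPases bring the vesicle to its site, Munc13 and CAPS proteins prime it, SM proteins guide the SNAREs, complexins clamp or assist them, synaptotagmins sense calcium, and NSF with alpha-SNAP takes the spent complexes apart. In the adrenal medulla this machinery releases catecholamines and peptides from the chromaffin granules, whereas steroids leave the cells of the cortex without it.

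The markers of the medulla and cortex matched the labelled tissue. All 16 chromaffin cell markers reached 1 TPM in both libraries, with a summed level of 4999 TPM in replicate 1 and 4235 TPM in replicate 2, the highest being Chga at 2420 and 2083 TPM. TPM, the scale used for levels, is a count divided by transcript length and scaled to 1 total per library, so it allows levels of different genes to be set side by side. All 10 cortex markers were also present, with a summed 29834 TPM in replicate 1 and 37254 TPM in replicate 2. Expected counts summed to 48059863 for replicate 1 and 53294872 for replicate 2. Over mouse genes alone they summed to 47615328 and 52890686. A gene with no count may still have been present, up to the limits that 3 counts set. These were 0.0630 CPM (counts scaled by the library's mouse gene total) in replicate 1 and 0.0567 CPM in replicate 2. These limits, and all intervals given for ratios, cover counting error only and not the spread between samples. They also treat reads as independent molecules, which amplified reads are not.

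The SNARE genes Stx3, Vamp1 and Stx2 were each measured as a pair of coding forms that both carried reads, and their alternative coding stretches are shown because the forms differ where the protein meets its partners or the membrane. The letters are the coding strand of the GRCm38 assembly, read 5′ to 3′ from the GENCODE M21 transcripts. In Stx3, a syntaxin best known from epithelia and the retina, the forms swap exon 9, at chr19:11782800-11782910 for Stx3-203 and chr19:11783026-11783136 for Stx3-202 (minus strand). Both versions have 111 bases, and capitals mark the 43 positions at which they differ.
Stx3-203: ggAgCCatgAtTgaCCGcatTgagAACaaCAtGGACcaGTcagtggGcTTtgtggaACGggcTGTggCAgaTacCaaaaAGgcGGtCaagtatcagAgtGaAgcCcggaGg
Stx3-202: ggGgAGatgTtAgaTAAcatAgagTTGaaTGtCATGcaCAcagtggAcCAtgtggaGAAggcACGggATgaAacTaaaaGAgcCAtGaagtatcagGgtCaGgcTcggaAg
Stx3-203 held 69.6% of the gene's TPM in replicate 1 and 69.1% in replicate 2, and Stx3-202 held 30.4% and 30.9%, so the split was alike in both libraries. It rests on 240 and 219 estimated counts for the first form and on 142 and 132 for the other. The authors' estimate divides reads over all exons in which the forms differ, not over exon 9 alone.

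The forms of Vamp1 (synaptobrevin 1, an R-SNARE) share 52 bases of exon 4, which starts at chr6:125219586 on the plus strand, and then part. Vamp1-201 goes on to exon 5 at chr6:125220050-125220063, while Vamp1-203 reads on within exon 4 to position 125219648. Capitals mark the bases after the shared start, which are the last ones before the stop codon.
Vamp1-201: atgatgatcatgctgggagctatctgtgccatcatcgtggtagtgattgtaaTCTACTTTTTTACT
Vamp1-203: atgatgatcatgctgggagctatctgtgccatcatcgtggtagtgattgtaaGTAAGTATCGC
Vamp1-201 had 54.6% of Vamp1 TPM in replicate 1 and 51.1% in replicate 2, and Vamp1-203 had 34.0% and 34.9%. Both forms were thus well represented in each library, with at least 1580 estimated counts apiece. In Stx2, a plasma membrane syntaxin also called epimorphin, the last coding exon is at chr5:128987765-128987842 in Stx2-201 and chr5:128986356-128986430 in Stx2-202 (minus strand). These ends, the stretches that anchor the protein in the membrane, have 78 and 75 bases, and no capitals are used because they were not aligned.
Stx2-201: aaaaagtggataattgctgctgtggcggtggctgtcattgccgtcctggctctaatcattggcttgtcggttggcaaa
Stx2-202: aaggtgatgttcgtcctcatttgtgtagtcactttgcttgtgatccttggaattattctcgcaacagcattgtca
The total of Stx2 was nearly equal in the libraries, with 21.2 TPM in replicate 1 and 21.5 TPM in replicate 2, but its split was not. Stx2-201 held 50.5% in replicate 1 and 61.3% in replicate 2, and Stx2-202 held 44.7% and 31.7%. With 2 libraries there is no test of such a difference in split.

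Most of the machinery was present. At 1 TPM or more in both libraries, 39 of the 47 genes were detected, or 83.0%, beside 54.6% of all 21474 protein-coding genes. The detected members were of middling level, with a median of 11.7 TPM beside 16.1 TPM for the 11718 detected protein-coding genes. Mean levels over both libraries reached 100 TPM for 5 members, lay between 10 and 100 TPM for 16, between 1 and 10 TPM for 20, and stayed under 1 TPM for 6. Together the members made up 0.179% of TPM in replicate 1 and 0.189% in replicate 2. Vamp2, Napa, Rab3a and Syt12 alone held 61.3% of that sum in replicate 1 and 57.6% in replicate 2. In a whole gland, a gene's level reflects both how many cells of a type were sampled and how much RNA each held, and fewer cells and less RNA per cell cannot be told apart.

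**Figure D1:**
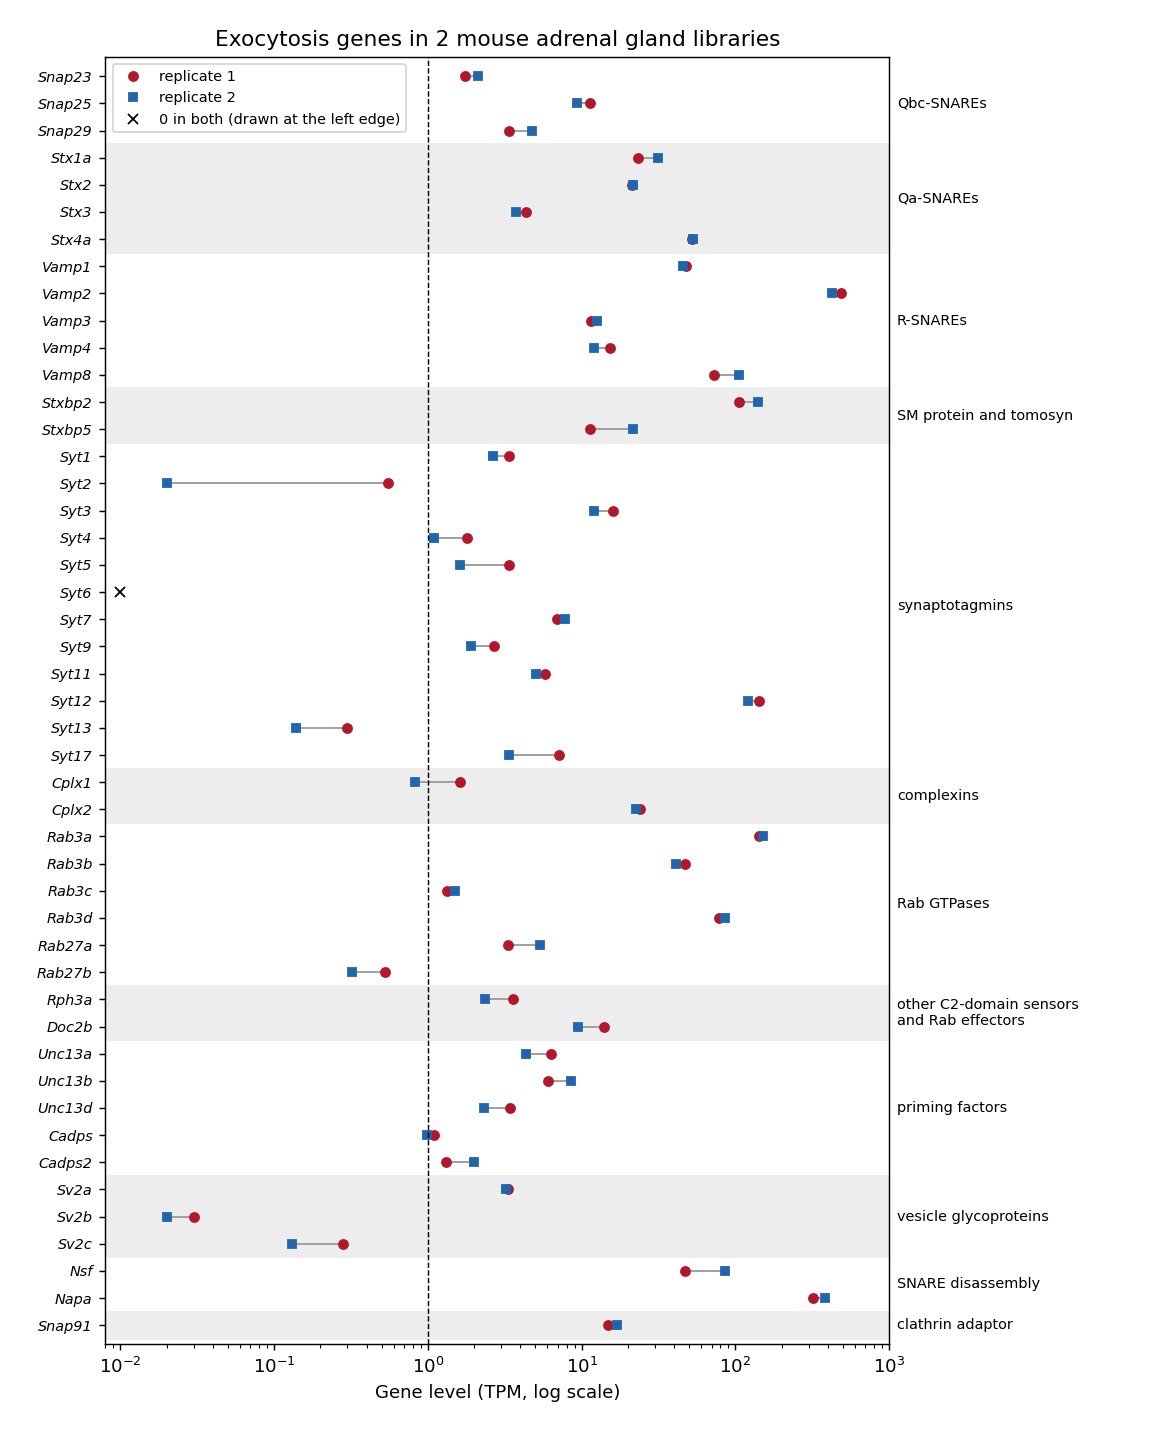
Level of each of the 47 genes in TPM (log scale) in replicate 1 (circles) and replicate 2 (squares), grouped by role, with a line joining the libraries and a dashed line at 1 TPM. Vamp2 and Napa stand highest in both libraries, and Syt6, drawn at the left edge, has 0 counts in both.

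Among the SNAREs the vesicle partner was by far the most abundant. Vamp2 (synaptobrevin 2, the R-SNARE of synaptic vesicles and chromaffin granules; ENSMUSG00000020894.12, chromosome 11, 69088490 to 69092384, plus strand) reached 483 TPM in replicate 1 and 424 TPM in replicate 2. It was first in rank among the 47 genes in both total and protein-coding TPM. Vamp8 (endobrevin, an R-SNARE of exocrine and blood cell granules) had 72.2 TPM in replicate 1 and 105.7 TPM in replicate 2. Vamp1 had 47.4 and 45.8 TPM, the spread between libraries being small. The recycling endosome R-SNARE Vamp3 (cellubrevin) was lower, with 11.5 TPM in replicate 1 and 12.6 TPM in replicate 2. Vamp4, an R-SNARE of the trans-Golgi network, had 15.3 and 12.0 TPM.

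Of the syntaxins, Stx4a, the widely expressed plasma membrane syntaxin 4, was highest, with 51.9 TPM in replicate 1 and 53.1 TPM in replicate 2. Stx1a, syntaxin 1A of neurons and endocrine cells (ENSMUSG00000007207.6, chromosome 5, 135023482 to 135051100, plus strand), had 23.3 TPM in replicate 1 and 31.5 TPM in replicate 2, but little of this was in its protein-coding transcript. Stx3 was the lowest of the 4 listed syntaxins in total TPM, at 4.38 and 3.75 TPM. In protein-coding transcripts alone Stx1a was lower, with 1.53 TPM in replicate 1 and 1.19 TPM in replicate 2. The libraries were stranded, but no source used here gives whether the authors' counting used strand, so reads of overlapping genes on opposite strands may not have been told apart. This limit holds for Stx4a, Snap29, Vamp1, Syt2, Syt3, Syt12, Rab3a, Doc2b and Unc13a, and Vamp3 shares its strand with the overlapping Camta1. It weighs most where the neighbour had far more counts. For Unc13a, with 732 counts in replicate 1 and 576 in replicate 2, Colgalt1 had 15373 and 16550. Snap29 (381 and 570) faces Pi4ka (2714 and 3801), and Syt2 (24 and 4) faces Ppp1r12b (889 and 1183). The neighbours of Vamp1, Syt3, Syt12 and Doc2b had fewer counts than the member.

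Snap25 (ENSMUSG00000027273.9, chromosome 2, 136713453 to 136782428, plus strand), the Qbc-SNARE of neurons and chromaffin cells, had 11.4 TPM in replicate 1 and 9.38 TPM in replicate 2. It stood above Snap23, its counterpart in most other cells, which had 1.75 and 2.12 TPM. Snap29, a Qbc-SNARE of endosomes and autophagosomes, had 3.39 TPM in replicate 1 and 4.73 TPM in replicate 2. The coding forms of Snap25 are known to carry alternative versions of an internal exon. Snap25-201 held 94.4% of its TPM in replicate 1 and 77.8% in replicate 2, and Snap25-202 held 5.35% and 21.9%. The minor form thus rests on 17.3 estimated counts in replicate 1 and 63.2 in replicate 2, and the forms also differ in the length of their last exon.

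The regulators of SNARE assembly were both present. Stxbp2 (Munc18-2, the SM protein of epithelial and blood cells) was the fifth most abundant member, with 106 TPM in replicate 1 and 139 TPM in replicate 2. Stxbp5 (tomosyn, which binds syntaxins in place of the R-SNARE and holds back release) had 11.3 TPM in replicate 1 and 21.5 TPM in replicate 2, the lowest log2 ratio of any member between the libraries, at -0.74. Napa (alpha-SNAP), the adaptor by which NSF grips the spent complex, was the second most abundant member, with 318 TPM in replicate 1 and 382 TPM in replicate 2. Nsf, the ATPase itself, had 46.8 TPM in replicate 1 and 85.9 TPM in replicate 2. Both disassembly genes were therefore higher in replicate 2 in TPM.

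The 12 synaptotagmins covered a range from 0 to over 100 TPM. Syt12, which lacks calcium-binding residues and acts without calcium, led with 143 TPM in replicate 1 and 121 TPM in replicate 2. Syt3, a calcium-binding form, followed at 16.1 and 12.0 TPM. Syt7, the high-affinity sensor known for slow release from chromaffin cells, had 6.95 TPM in replicate 1 and 7.82 TPM in replicate 2, and exceeded Syt1, the fast sensor of synapses and chromaffin granules, at 3.39 and 2.64 TPM. Syt11, whose first C2 domain does not bind calcium, had 5.74 TPM in replicate 1 and 5.08 TPM in replicate 2. The level of Syt4, its closest relative, was lower, at 1.81 and 1.09 TPM. The fast sensor Syt9 had 2.71 TPM in replicate 1 and 1.90 TPM in replicate 2. However, 63.5% of its TPM in replicate 1 and 61.6% in replicate 2 was assigned to Syt9-204, a coding model of 482 nt that held only 13.1% and 11.6% of its counts.

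Other synaptotagmins were scarce. Syt6 had 0 counts in both libraries, which allows at most the limits of 3 counts given above. Syt2, the fast sensor of hindbrain and neuromuscular synapses, had 24 counts in replicate 1 and 4 in replicate 2. Syt13, which acts without calcium, had 37 counts in replicate 1 and 19 in replicate 2. These 3 genes, with Cplx1, Rab27b, Cadps, Sv2b and Sv2c, are the 8 members that did not reach 1 TPM in both libraries.

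Complexins were represented by Cplx2, with 23.9 TPM in replicate 1 and 22.5 TPM in replicate 2. Cplx1, the main complexin of many fast synapses, had 1.63 TPM in replicate 1 and 0.82 TPM in replicate 2. Rab3a (ENSMUSG00000031840.8, chromosome 8, 70754679 to 70758677, plus strand), the Rab of synaptic vesicles and neuroendocrine granules, was the third most abundant member, with 142 TPM in replicate 1 and 151 TPM in replicate 2. The gene Mpv17l2, which overlaps it on the opposite strand, had 340 and 275 TPM. Rab3d, known from exocrine and mast cell granules, had 77.7 TPM in replicate 1 and 86.0 TPM in replicate 2, and Rab3b had 46.7 and 41.2 TPM. Rab3c was low, with 1.34 TPM in replicate 1 and 1.51 TPM in replicate 2. Rab27a, a Rab of lysosome-related and secretory granules, had 3.30 TPM in replicate 1 and 5.36 TPM in replicate 2, and its paralogue Rab27b had 0.53 and 0.32 TPM.

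Every priming factor except Cadps was detected in both libraries, at low levels. Unc13a (Munc13-1, the main primer of brain synapses) had 6.32 TPM in replicate 1 and 4.37 TPM in replicate 2. Unc13b (Munc13-2) had 6.07 and 8.48 TPM. Unc13d (Munc13-4), which primes granules of blood cells, had 3.44 TPM in replicate 1 and 2.32 TPM in replicate 2. Cadps2 (CAPS2) had 1.31 TPM in replicate 1 and 1.99 TPM in replicate 2, and Cadps (CAPS1), a primer of dense-core granules, had 1.09 and 0.99 TPM, just at the limit of detection used here. Doc2b, a high-affinity calcium sensor that binds Munc13, had 14.0 TPM in replicate 1 and 9.45 TPM in replicate 2. Rph3a (rabphilin, an effector of Rab3) had 3.56 and 2.37 TPM. Among the vesicle glycoproteins, Sv2a had 3.31 TPM in replicate 1 and 3.22 TPM in replicate 2, Sv2c had 0.28 and 0.13 TPM, and Sv2b had 6 counts in replicate 1 and 4 in replicate 2. Snap91 (AP180), which despite its symbol is no SNARE but a clathrin adaptor that helps to recover vesicle membrane, had 14.9 TPM in replicate 1 and 16.9 TPM in replicate 2.

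Several of the most abundant members owed much of their TPM to transcripts that are not annotated as protein-coding. In 12 of the 39 detected members, or 30.8%, protein-coding transcripts made up under 50% of the mean TPM, against 16.0% of all detected protein-coding genes, and the median coding share was 94.1% for the members against 99.5% for all. The 12 were Stx1a, Stx4a, Vamp2, Vamp4, Stxbp2, Stxbp5, Syt12, Rab27a, Unc13a, Unc13b, Nsf and Napa. By counts, the members did not stand above the background. Only 2 of the 39 (5.13%), Stx1a and Vamp4, had under 50% of their counts in coding transcripts, against 8.82% of all detected protein-coding genes. TPM divides by length, so a short transcript turns few reads into many TPM.

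**Figure D2:**
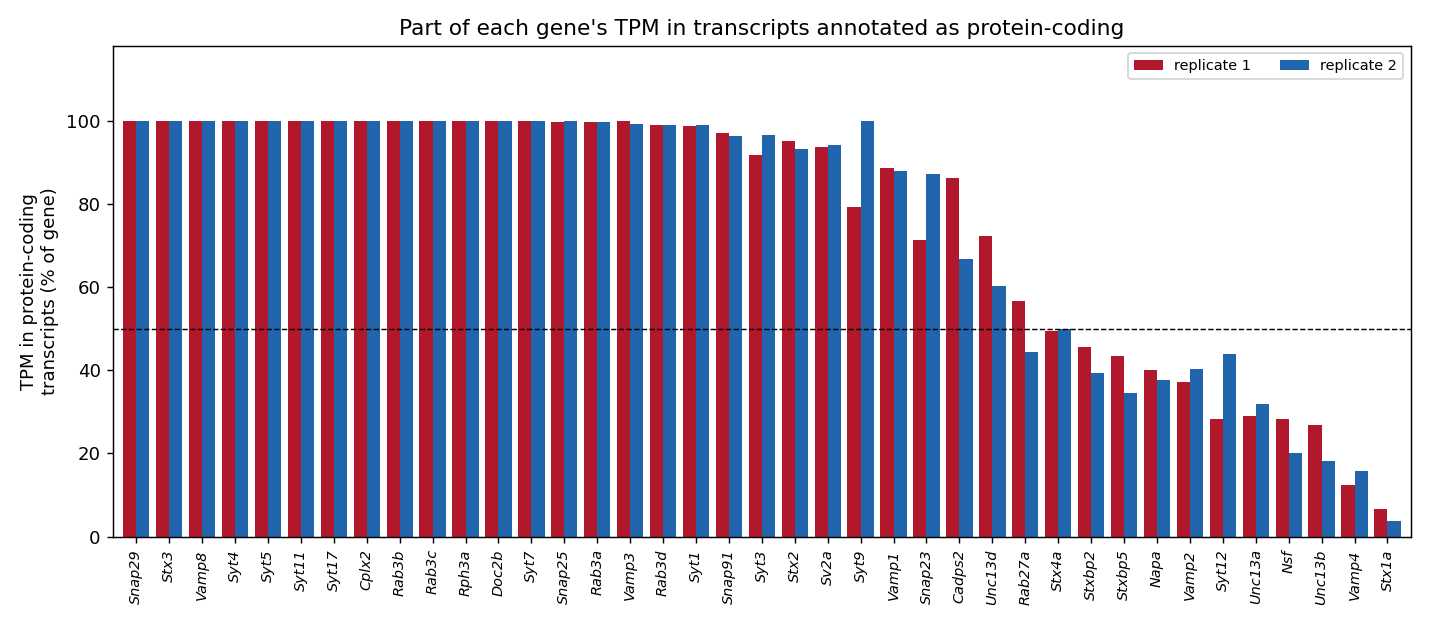
Percent of each detected gene's TPM in transcripts annotated as protein-coding, for the 39 genes detected in both libraries, with replicate 1 left of replicate 2 and a dashed line at 50%. Stx1a is lowest, at 6.56% in replicate 1 and 3.77% in replicate 2.

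Nsf shows the size of this effect. Nsf-208, a retained-intron model of 612 nt with 3 exons, held 71.3% of Nsf TPM in replicate 1 and 78.0% in replicate 2 but 22.6% and 31.2% of its counts. The coding Nsf-202 held 13.3 TPM in replicate 1 and 17.3 TPM in replicate 2. For Vamp2, coding transcripts had 180 TPM in replicate 1 and 171 TPM in replicate 2, while the retained-intron model Vamp2-205 (676 nt) had 279 and 220 TPM. Coding transcripts of Napa had 128 TPM in replicate 1 and 144 TPM in replicate 2, and the retained-intron model Napa-206 (495 nt) had 136 and 168 TPM. In Syt12 the leading model was Syt12-204, a processed transcript of 445 nt, with 70.9% of TPM in replicate 1 and 54.9% in replicate 2, against 15.4% and 8.58% of counts.

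Stx1a differed from these in that its counts, too, lay mostly outside the coding transcript. Of its 1274 counts in replicate 1 and 1867 in replicate 2, the protein-coding Stx1a-201 received 8.21% and 4.67%, or 1.53 TPM in replicate 1 and 1.19 TPM in replicate 2. The retained-intron model Stx1a-205 (2114 nt), nearly as long as the coding one, received 73.4% of counts in replicate 1 and 89.7% in replicate 2. By coding TPM, Stx1a ranked 38 among the 47 genes, against 12 by total TPM. Vamp4 was the other such gene, with 36.9% of its counts in coding transcripts in replicate 1 and 41.6% in replicate 2. How well short-read estimates divide such overlapping models was not tested.

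Of the 31 detected members with more than 1 transcript, 30 had the same leading transcript in both libraries, the exception being Stx4a. In 21 the leader was protein-coding in both libraries and in 9 it was not in either. These 9 were Stx1a, Vamp2, Vamp4, Stxbp5, Unc13a, Unc13b, Nsf and Napa, each led by a retained-intron model, and Syt12. In Syt7, whose coding forms differ in the linker before the C2 domains, Syt7-203 held 58.2% in replicate 1 and 64.6% in replicate 2, and Syt7-201 held 36.9% and 21.2%.

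Ratios between related genes were taken within each library, where depth and scaling cancel. They are given per library and without a test, since 2 values leave 1 degree of freedom. Snap25 exceeded Snap23 by 6.51 times in replicate 1 and 4.42 times in replicate 2, and by more among coding transcripts alone, at 9.10 and 5.06 times. Vamp2 exceeded Vamp3 by 42.2 times in replicate 1 and 33.6 times in replicate 2, or by 15.7 and 13.6 times among coding transcripts. Over Vamp8, the ratio of Vamp2 was 6.69 in replicate 1 and 4.01 in replicate 2, but 2.50 and 1.62 among coding transcripts. Cplx2 was 14.7 times the level of Cplx1 in replicate 1 and 27.4 times in replicate 2. Rab3a was 1.83 times the level of Rab3d in replicate 1 and 1.75 times in replicate 2, nearly the same in both. Syt1 was at 0.488 of the level of Syt7 in replicate 1 and 0.338 in replicate 2.

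For 3 pairs the order by the mean ratio of both libraries turned when only coding transcripts were summed. Stx1a was 5.32 times the level of Stx3 in replicate 1 and 8.41 times in replicate 2 over all transcripts, but at 0.349 and 0.317 of it among coding ones. Unc13a was 1.84 times the level of Unc13d in replicate 1 and 1.88 times in replicate 2, but at 0.735 and 0.993 among coding ones. Unc13b over Unc13d was 1.76 in replicate 1 and 3.66 in replicate 2 over all transcripts, against 0.655 and 1.10 among coding ones. For this pair the libraries thus fell on different sides of 1 among coding transcripts. The coding sum of Unc13d includes Unc13d-206, a model of 353 nt. It had 6.14 counts in replicate 1 and 3.01 in replicate 2, but 1.12 and 0.49 TPM. The main coding transcript, Unc13d-202, had 1.37 and 0.91 TPM. This is below the coding sums of Unc13a (1.83 and 1.39 TPM) and Unc13b (1.63 and 1.54 TPM). The turns of both Unc13 pairs therefore rest on a model with few counts. Napa exceeded Nsf under both sums, by 6.80 times in replicate 1 and 4.45 times in replicate 2 over all transcripts and by 9.60 and 8.34 times among coding ones.

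**Figure D3:**
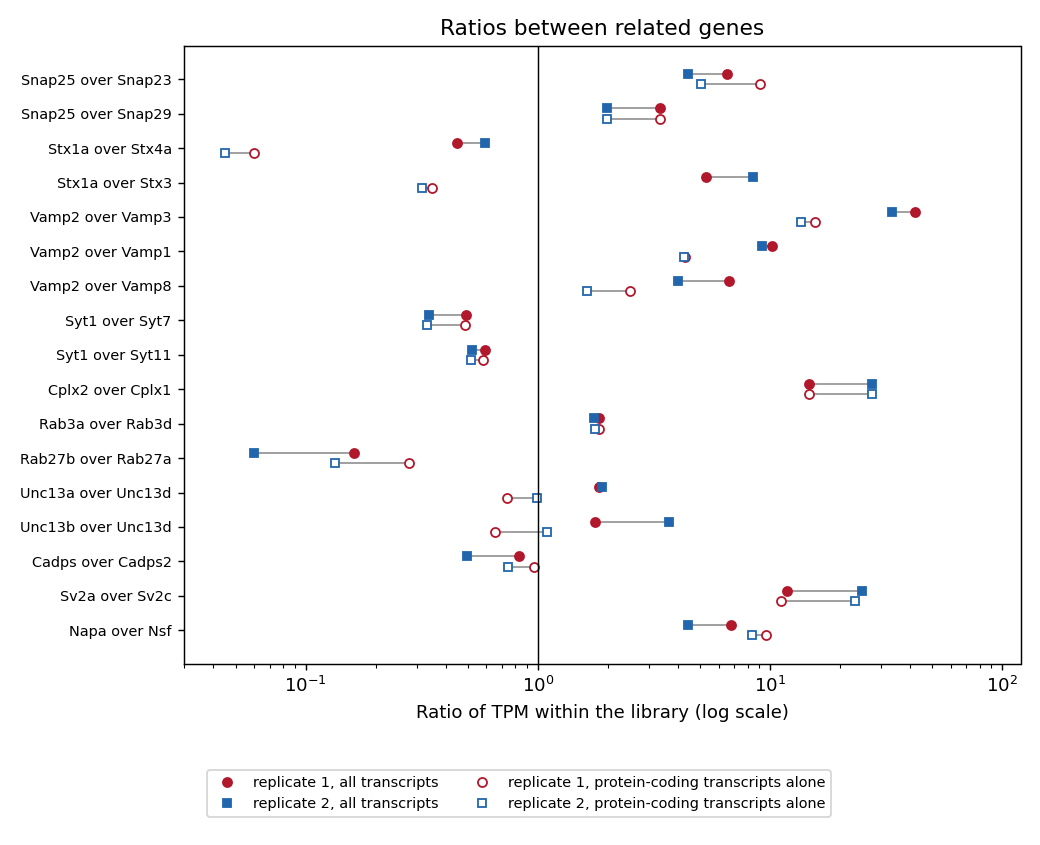
Ratio of TPM between related genes (log scale) in replicate 1 (circles) and replicate 2 (squares), over all transcripts (filled) and protein-coding transcripts alone (open). The line at 1 marks equal levels, and Stx1a over Stx3 lies above it over all transcripts and below it among coding ones.

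Between the libraries, 6 members differed by 2-fold or more, and all 6 were higher in replicate 1. They were the synaptotagmins Syt2, Syt5, Syt13 and Syt17, the complexin Cplx1 and the vesicle glycoprotein Sv2c. Each gene was compared by a two-sided exact binomial test on rounded expected counts scaled by edgeR's TMM factors, with Benjamini-Hochberg adjustment over all 15824 genes with a summed count of 20 or more. A gene was called at an adjusted p under 0.05 and a 2-fold difference. This compares the reads of 2 libraries, not conditions. Of all tested genes 6.92% were called, 4.35% as higher in replicate 1 and 2.57% as higher in replicate 2. Of the 45 tested members 13.3% were called as higher in replicate 1 and 0 as higher in replicate 2, so the members' share in the first direction lay above the background. Syt6 and Sv2b had too few counts to be tested.

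The called members were all of low or modest level. Syt17, a less studied synaptotagmin also known as B/K (ENSMUSG00000058420.5, chromosome 7, 118380717 to 118448222, minus strand), had 350 counts in replicate 1 and 180 in replicate 2, or 7.08 and 3.39 TPM. Its log2 ratio was 1.10 (95% counting interval 0.84 to 1.37; adjusted p = 6.68e-17, exact binomial test with Benjamini-Hochberg adjustment). Syt5, a calcium-binding sensor of dense-core granules, had 181 counts in replicate 1 and 94 in replicate 2, or 3.35 and 1.62 TPM. Its log2 ratio was 1.09 (0.73 to 1.47). For Cplx1, with 113 counts in replicate 1 and 61 in replicate 2, it was 1.03 (0.58 to 1.51). Sv2c had 39 counts in replicate 1 and 20 in replicate 2, and Syt13 had 37 and 19, each with a log2 ratio of 1.09 and intervals that reached down to 0.30 and 0.27. Syt2 had the highest ratio, 2.58, but on 24 and 4 counts, with an interval of 1.19 to 4.72. Apart from Syt2, the called ratios lay close above the 2-fold limit, and the lower bounds of their intervals lay below it.

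**Figure D4:**
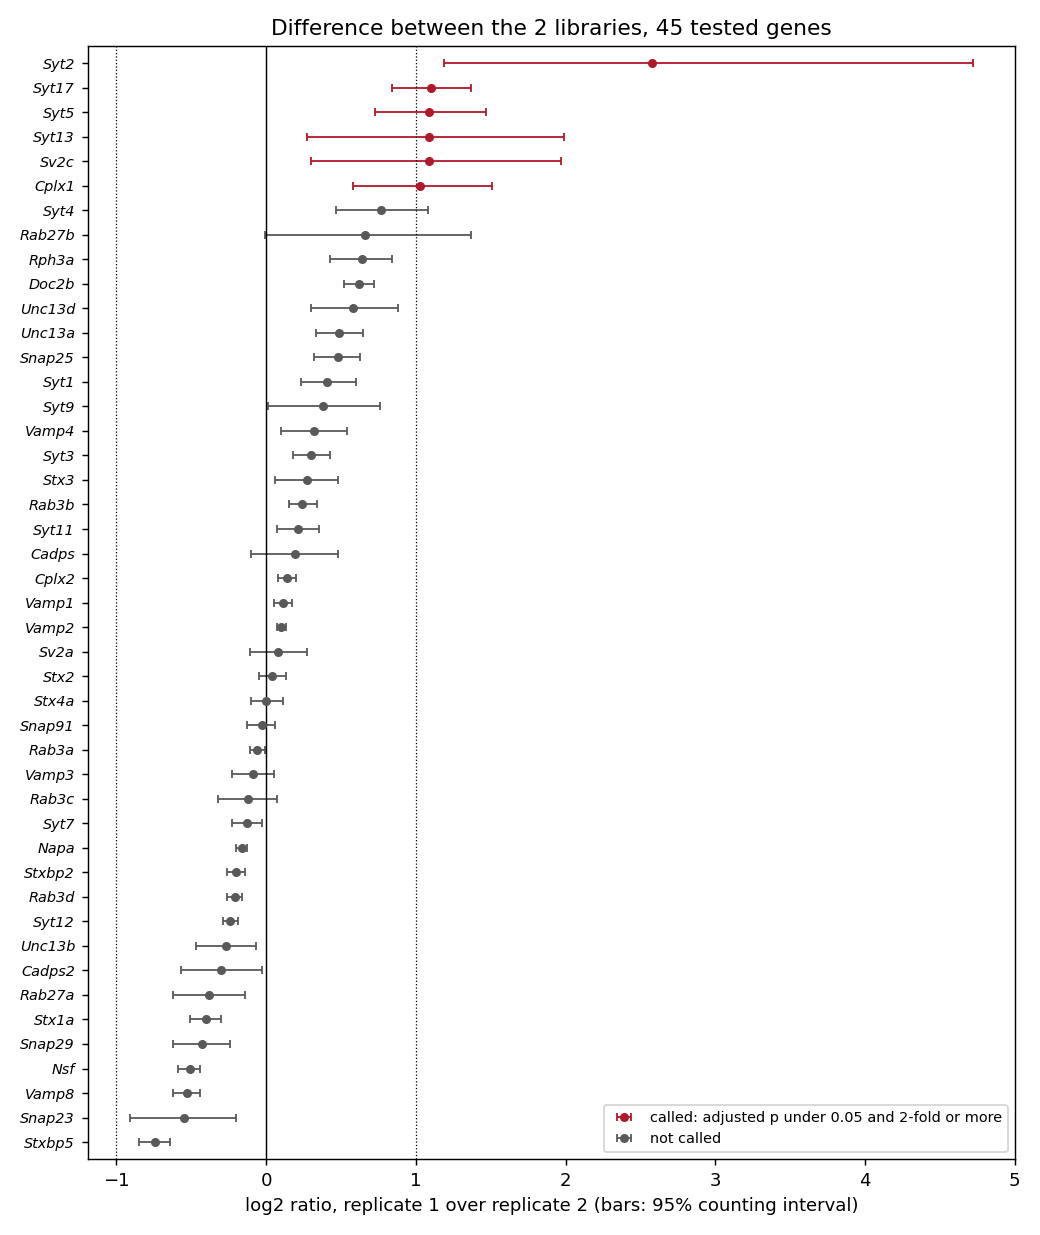
Log2 ratio of replicate 1 over replicate 2 for the 45 tested genes, from scaled counts, with 95% counting intervals. Dotted lines mark 2-fold differences, and the 6 called genes (red) lie at 1.03 or above, while Stxbp5 is lowest at -0.74.

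With no minimum fold, 21 of the 45 tested members (46.7%) were higher in replicate 1, 15 (33.3%) were higher in replicate 2 and 9 did not pass. Over all tested genes the same rule called 29.2% as higher in replicate 1 and 29.0% as higher in replicate 2. The median log2 ratio was 0.11 over the members and 0.00 over all tested genes. Those higher in replicate 1 below the 2-fold limit included Syt4 (log2 ratio 0.77), Rph3a (0.64), Doc2b (0.62), Unc13d (0.58), Unc13a (0.49), Snap25 (0.48) and Syt1 (0.41). Of the 11 tested synaptotagmins 8 were higher in replicate 1, with 2, Syt7 and Syt12, higher in replicate 2, and a median of 0.41. Those higher in replicate 2 included Stxbp5 (-0.74), Snap23 (-0.55), Vamp8 (-0.53), Nsf (-0.51), Snap29 (-0.43), Stx1a (-0.40) and Rab27a (-0.38). For Syt12 counts and TPM went in different directions, since its log2 ratio was -0.24 on scaled counts, while its TPM was 143 in replicate 1 and 121 in replicate 2.

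These differences depended on the spread assumed between samples and on the scaling. When edgeR was given a biological coefficient of variation of 0.2, none of the 45 tested members was called. Of all 15824 tested genes, 134 were called as higher in replicate 1 and 110 as higher in replicate 2. With so few calls over all genes, 0 among 45 is no result about the members. Scaling by the ERCC spike-ins, RNAs added in known amounts, moved the median log2 ratio of all genes to -0.43, with 289 genes called as higher in replicate 1 and 1303 as higher in replicate 2, against 689 and 406 with TMM. On that scale only Syt2 stayed called among the 6, and Stxbp5 was called as higher in replicate 2. That is 1 of 45 tested members in each direction, beside 289 and 1303 of all 15824 tested genes. The members' share was thus near that of all genes for replicate 1 and below it for replicate 2. The excess of members higher in replicate 1 seen with TMM was absent on this scale.

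Markers of other cell types also differed between the libraries, several lists in the direction of the called members and others not. Neuron markers summed to 66.4 TPM in replicate 1 and 29.3 TPM in replicate 2. Of the 10 listed, 6 reached 1 TPM in both libraries, and 7 of the 9 tested were called as higher in replicate 1. Stmn3, the highest by the mean of both libraries, had 17.4 TPM in replicate 1 and 8.76 TPM in replicate 2, and none of the 10 was at 0 in either library. Chromaffin markers had a median log2 ratio of 0.22, and 3 of the 16, Chgb, Slc18a2 and Penk, were called as higher in replicate 1, while 4 had ratios below 0. Of these Pnmt, the enzyme that makes adrenaline, had 381 TPM in replicate 1 and 593 TPM in replicate 2, a log2 ratio of -0.60. Schwann and glial markers summed to 30.7 TPM in replicate 1 and 20.7 TPM in replicate 2, with 5 of 7 detected and Mbp highest at 13.3 and 10.1 TPM. Adipose markers, 10 of 10 detected, summed to 15649 TPM in replicate 1 and 7067 TPM in replicate 2, with Cfd highest at 9884 and 3984 TPM. Endothelial markers, 7 of 7 detected, summed to 835 TPM in replicate 1 and 724 TPM in replicate 2, with Plvap highest at 690 and 595 TPM and a median log2 ratio of 0.26. Stomach lining markers summed to 46.6 TPM in replicate 1 and 2.17 TPM in replicate 2, with all 5 tested genes called and 1 of 6 detected in both libraries, Pgc being highest at 27.6 and 1.57 TPM. Exocrine pancreas markers, 1 of 8 detected and Cpa1 at 0 in both, summed to 55.8 TPM in replicate 1 and 3.85 TPM in replicate 2, of which Clps gave 53.4 and 1.63 TPM. Cortex markers summed lower in replicate 1, with a median log2 ratio of -0.32 and Cyp21a1 highest at 14483 and 19341 TPM. Erythroid markers, 5 of 5 detected and all higher in replicate 2 by adjusted p, summed to 3760 TPM in replicate 1 and 4908 TPM in replicate 2. Their highest, Hba-a1, had 1846 and 2416 TPM, but shares reads with its near-identical copy Hba-a2. The part of these cells in the members' differences was not tested.

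Members known from granules of blood cells or mast cells can be set beside markers of those cells in the same way. Vamp8, Stxbp2, Rab27a and Rab3d were higher in replicate 2 by adjusted p and Unc13d in replicate 1. Macrophage markers (6 of 7 detected) summed to 469 TPM in replicate 1 and 441 TPM in replicate 2, with C1qc highest at 205 and 194 TPM. The list was divided, however, with 3 of the 7 higher in replicate 1 and 3 higher in replicate 2 by adjusted p. Its median log2 ratio was -0.05. Mast cell markers (4 of 8) summed to 19.0 and 27.8 TPM, with Tpsb2 highest at 9.94 and 17.7 TPM and Ms4a2 at 0 in both. Lymphocyte markers (2 of 8) summed to 6.33 and 7.98 TPM, with Cd79a highest at 2.21 and 3.05 TPM. Their part in these members' levels was not tested.

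The rest of the pathway was read from a list of 70 further genes, 68 of which matched. Of these, 59 were tested, and 2 were called as higher in replicate 1 and 1 as higher in replicate 2, beside 4.35% and 2.57% of all tested genes, so these calls are no result about the list. Syn2 (synapsin 2, which tethers synaptic vesicles) had 3458 counts in replicate 1 and 1719 in replicate 2, and its log2 ratio was 1.16 (1.07 to 1.24). Syngr3, a synaptogyrin of synaptic vesicles, had 318 and 138 counts, a log2 ratio of 1.35 (1.06 to 1.65). Unc13c, with 10 counts in replicate 1 and 28 in replicate 2, was the gene called as higher in replicate 2. By adjusted p without a minimum fold 12 were higher in replicate 1, 24 in replicate 2 and 23 did not pass, with a median log2 ratio of -0.11, beside 29.2% of all tested genes as higher in replicate 1 and 29.0% as higher in replicate 2. Of the 68 matched genes, 44 reached 1 TPM in both libraries, and the groups within the list were not alike. The exocyst, the complex that tethers vesicles to the plasma membrane in most cells, was detected in all 9 of its genes. By adjusted p 7 of them were higher in replicate 2, with a median of -0.26. Of 10 further synaptotagmins and synaptotagmin-like genes only 1 was detected. The 7 of these that were tested had a median of 0.56, with 2 higher in replicate 1 and 1 in replicate 2 by adjusted p.

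The 8 most abundant of these further genes included the secretory carrier membrane proteins Scamp3 and Scamp2 and the vesicle membrane proteins Syngr2 and Syngr1. Scamp3 had 235 TPM in replicate 1 and 297 TPM in replicate 2, Syngr2 had 171 and 218 TPM, and Syngr1 had 119 and 86.1 TPM. Scamp2 averaged 81.2 ± 5.46 TPM, Snap47 63.1 ± 4.74 TPM, Rims4 48.2 ± 16.4 TPM, Rab3gap2 30.2 ± 8.94 TPM and Rab3gap1 29.3 ± 2.88 TPM (SD, n = 2 each). Scamp3 and Syngr2 thus stood above every member except Vamp2 and Napa in mean total TPM. In protein-coding transcripts alone they stood above those as well, with means of 244 TPM for Scamp3 and 188 TPM for Syngr2, against 176 TPM for Vamp2 and 136 TPM for Napa.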

How the data were processed

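Adrenal gland poly(A) RNA was sequenced in 2 libraries of 1 group, with replicate numbers from the labels. Per the deposited readme files, the tables derive from alignments to the mm10 transcriptome with the M4 annotation. The sources used here name no aligner or quantifier. Per the file headers the deposited tables hold an expected count (an estimate of read pairs, not normalized), TPM and a posterior mean of TPM, and FPKM (used only as an alternative scale for ratios), and for transcripts also the percent of the gene. The authors' TPM is scaled over all rows, spike-ins included. An expected count is fractional where the authors split reads, as for Vamp2, Vamp8, Syt7, Syt11, Syt12, Cplx2, Rab3d and Napa, so these are less certain. Deposited mm9 tables were not used here.

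Symbols, positions and transcript types came from GENCODE M21 (GRCm38) by identifier without version. This matched 42462 of 43346 genes, all members, 68 of 70 pathway genes (not Vamp7 and Noc2), 102 of 102 markers, and 243 of 245 member transcripts. A transcript's share was computed from its TPM, not taken from the deposited percent. ERCC spike-ins held 0.654% of counts in replicate 1 and 0.485% in replicate 2 and were left out of library sizes and tests.

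Expected counts were rounded for the tests. TMM factors came from edgeR 4.0.16, DESeq2 1.42.0 gave alternative size factors, and the exact binomial test was run in scipy 1.17.1 with Benjamini-Hochberg adjustment. Log2 ratios used a prior count of 0.5, and intervals are Clopper-Pearson. The test was checked on simulated counts that held no spread between samples, with planted changes well above the 2-fold limit. That check therefore does not cover spread between samples or calls close to the limit on few counts. Detection meant 1 TPM in both libraries.

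The members, lists and tests were chosen with earlier results of these data known. All members are named, of the further pathway genes those called with a mean count of 50 or more and the 8 of highest mean TPM, of the marker lists the sums and the gene of highest mean TPM, and neighbours that overlap a member, except for a result that is not reported here. Unc13c, Pnmt, Chgb, Slc18a2, Penk, Cpa1 and Ms4a2 were named after their values were seen.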

Additional observations from a re-analysis of the deposited data

How the results depend on the processing

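The count of 39 detected members was 39 to 41 with each library left out, 40 on the posterior mean of TPM, 39 over protein-coding transcripts alone and 24 at 5 TPM. The members' share of TPM lay between 0.179% and 0.189% with each library left out, and was 0.103% over protein-coding transcripts alone, a setting chosen after seeing the data. The 6 members called as higher in replicate 1 numbered 6 also with DESeq2 size factors and with no filter on low counts. Beside them stood 699 of 15824 and 900 of 20024 tested genes. The count became 1 with ERCC scaling (289 of 15824 genes) and 21 with no minimum fold (29.2% of genes). With an assumed coefficient of variation of 0.2 it became 0 (134 of 15824 genes). The count of 0 called as higher in replicate 2 became 1 with ERCC scaling (Stxbp5, log2 ratio -1.17), beside 1303 of 15824 genes. With no minimum fold it became 15, beside 29.0% of genes.

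ERCC scaling turned the median log2 ratio of the members to -0.32, beside -0.43 for all genes. It also turned 14 single ratios, to -0.24 for Cadps, -0.29 for Cplx2, -0.19 for Rab3b, -0.39 for Stx2, -0.16 for Stx3, -0.43 for Stx4a, -0.35 for Sv2a, -0.02 for Syt1, -0.22 for Syt11, -0.12 for Syt3, -0.04 for Syt9, -0.32 for Vamp1, -0.33 for Vamp2 and -0.11 for Vamp4. On log2(TPM + 1), Stx2 turned to -0.02, Stx4a to -0.03 and Syt12 to 0.23. Over coding transcripts alone the mean ratio of Stx1a over Stx3 turned to 0.333, of Unc13a over Unc13d to 0.864 and of Unc13b over Unc13d to 0.877. The cause was not tested, except that a shift of all ratios follows from the scaling itself. Protein-coding leading transcripts numbered 21 or 22 with each library left out.

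No paired analysis was possible because the 2 libraries form 1 group. With 1 library on each side there is no estimate of the spread between samples, and members under about 50 counts have wide intervals.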
